A study of Glycine max with 10 samples.

Results

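The comparison described here is that of soybean shoot apical meristem (SAM) after 6 short days (SDs) with the vegetative SAM at 0 SD, over the 37262 soybean probe sets of the Affymetrix Soybean GeneChip that are outside the 331 transcripts the study selected. A probe set is a group of short probes that measures 1 transcript. It rests on 4 of the 10 arrays, 2 at 6 SD and 2 at 0 SD, each replicate named as the labels do (replicate 1, which carries no letter, and replicate B). Plants of cultivar Bragg were grown in a glasshouse in long days for 10 days (0 SD) and then moved to a chamber with 10 h of light at 24 °C for 6 days (6 SD). Approximately 70 SAMs per sample are given in the labels, and 3 µg of total RNA was used per array. Only the vegetative dome, without leaf primordia, went into the 0 SD samples, and the 6 SD samples held the inflorescence meristem together with the floral meristem beside it. Short days, the chamber, the greater age and the different tissue therefore cannot be told apart in any change given below. For 0 SD replicate B, one label field describes the chamber although its title and source name say vegetative. The 331 transcripts had been chosen on the same 10 arrays by a test of the whole time profile, so that a probe set outside them may still change at 6 SD.

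Soybean flowers when nights are long. A signal formed in the leaves reaches the SAM, where MADS-box transcription factors such as APETALA1 (AP1), FRUITFUL and SEPALLATA3 (SEP3) switch the meristem from making leaves to making flowers. Around this switch the apex also adjusts its hormones (gibberellin, auxin, jasmonate), its sugar and starch supply and the entry of water into its cells, and the groups below follow these roles.

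The meristem markers went with the labels. AP1 stood at 4.80 and 4.97 on the log2 intensity scale at 0 SD and at 11.95 and 12.60 at 6 SD, FRUITFUL at 5.90 and 6.17 against 10.54 and 10.75, and SEP3 at 3.97 and 3.99 against 10.95 and 10.27 (replicate 1 first throughout). SVP, a repressor of flowering in Arabidopsis, was lower, at 6.75 and 6.83 against 5.85 and 5.55. All 4 belong to the selected transcripts and passed the test described below, but the call of SVP ended without either 0 SD array or 6 SD replicate B (adjusted p 0.0655 to 0.0868). Of the KNOX genes that mark meristem, the SHOOT MERISTEMLESS probe set was at 10.17 and 10.45 at 0 SD and 11.90 and 11.52 at 6 SD. The receptor genes CLV1A and NARK were dim on all 4 arrays, between 3.54 and 6.20. Among 20 probe sets of leaf and green tissue, such as the chlorophyll-binding CAB3 and LHCP, 17 were bright enough to test. Of these, 2 rose (1 PSAD outside the selected transcripts and 1 LHCB4.3 among them), none fell, and the mean over all 20 was 9.84 and 9.87 at 0 SD against 9.86 and 10.19 at 6 SD. The only probe set of lignified tissue that was found, for caffeoyl-CoA O-methyltransferase, is among the selected transcripts, and no leghaemoglobin probe set was found by name. The arrays were similar in spread except 6 SD replicate B, whose interquartile range was 3.60 against 3.94 to 4.02 for the other 9.

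Outside the selected transcripts, 567 probe sets rose and 493 fell at 6 SD among the 20098 tested, that is 2.82% and 2.45%. Only probe sets brighter than the array median on 2 or more of the 10 arrays entered the test, which left out 17164 dimmer ones. The test was limma's moderated test on the means of 5 time points, with Benjamini-Hochberg adjustment over all 20366 probe sets tested and a threshold of 0.05. The rises had a median log2 change of 1.26 and ran from 0.55 to 4.85, with 383 above 2-fold and 90 above 4-fold. The falls were smaller, with a median of -0.79 and a range of -0.48 to -4.32, and only 117 and 6 passed these sizes. Since the median log2 change of all tested probe sets outside the selected transcripts was -0.13, small falls lie closer to the bulk than small rises. With the arrays brought to a common median and interquartile range there were 868 rises and 283 falls, so that 75.4% of the calls were rises against 53.5% in the deposited values. Of the rises, 65 were bright only in the 6 SD arrays and had to be higher there to be tested at all. Falls bright only in the 0 SD arrays, such as SACPD-C below, likewise had to be lower at 6 SD and were not counted. A further limit is that 26 rises and 4 falls share a gene or a transcript cluster with a selected transcript. Only 74 rises (61 genes) and 34 falls (30 genes) carried a gene name, and 325 and 360 matched no gene. In tissue pieces such as these, more cells of a type and more RNA per cell cannot be told apart.

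Each 6 SD array was then set against the mean of the 0 SD arrays on its own. For all 1060 changed probe sets both 6 SD arrays lay beyond both 0 SD arrays, as did 16.0% of all tested probe sets on the higher side and 36.0% on the lower side. The rises were of similar size on both arrays, with median differences of 1.21 on each. The falls were not: the median difference was -0.68 on replicate 1 and -0.89 on replicate B, and replicate B showed the larger fall for 382 of 493. In the same way, the median over all tested probe sets was -0.06 on replicate 1 and -0.20 on replicate B. The shift of replicate B followed intensity: in the dimmest quintile of the probe sets its median difference was 0.16, and in the 3 brightest quintiles it was -0.18, -0.22 and -0.18, whereas replicate 1 stayed between -0.08 and 0.00. With a common median and interquartile range, which removes the narrower range of replicate B, 554 of the 567 rises and 263 of the 493 falls were still called, and with a common median alone 561 and 397. Without 6 SD replicate B, 470 rose and 215 fell, of which 276 and 119 were the same probe sets as before. Without 6 SD replicate 1, 862 rose and 2727 fell, with 441 and 460 the same. The calls were kept without either of these arrays by 255 rises and 109 falls. Leaving out a 0 SD array removed more rises and falls. Without 0 SD replicate 1, 79 rose and 21 fell, and without 0 SD replicate B, 294 and 93. Leaving out an array of 1, 2 or 4 SD gave 312 to 506 rises and 160 to 369 falls. In all, 56 rises and 11 falls kept their call when each of the 10 arrays was left out in turn. Leaving out 1 or the other array of 1 SD gives the same fit apart from the brightness filter. This holds also at 2 and 4 SD, so each such pair is 1 check. Without 1 array of 0 SD or 6 SD, the other adds nothing to the spread used. The spread that sets the main calls came from all 5 time points. The median absolute difference between replicates was 0.267 at 6 SD and 0.196 at 0 SD. At 1, 2 and 4 SD it was 0.125, 0.226 and 0.143, so the shared spread may be too small for 6 SD. With the 4 arrays of 0 SD and 6 SD alone, 54 rose and 6 fell. Among the genes outside the selected transcripts that are said below to keep their call without each of the 10 arrays, those of GA2OX8, IFS2 and ELIP were also made with these 4 arrays alone, whereas those of NOD33, COL2A, FCL2, MYB176, MYB70, PIP1-7, CRK5 and ASP1 were not (adjusted p 0.0604 to 0.116).

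**Figure D1:**
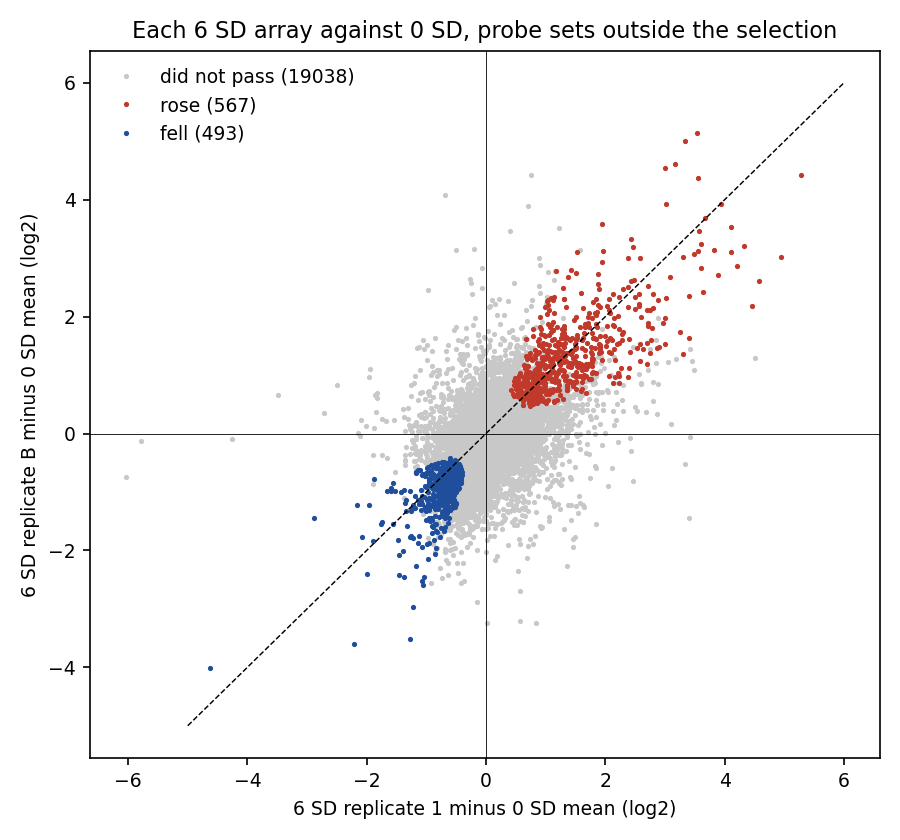
Difference of each 6 SD array from the mean of the 0 SD arrays (log2; replicate 1 on the horizontal axis, replicate B on the vertical axis) for the 20098 tested probe sets outside the selected transcripts. Red points rose (567), blue points fell (493), grey points did not pass, and the dashed line marks equal differences; the rises spread on both sides of it, whereas most falls lie below it, with the larger fall on replicate B.

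**Figure D2:**
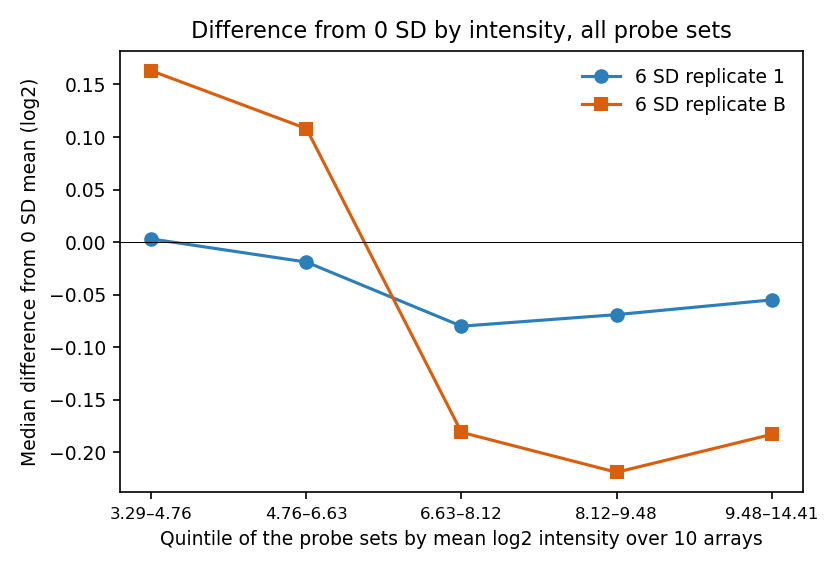
Median difference from the 0 SD mean (log2) in quintiles of the 37262 probe sets ranked by mean intensity over 10 arrays, for 6 SD replicate 1 (circles) and replicate B (squares). Replicate B lies above 0 in the dim quintiles (0.16 and 0.11) and near -0.2 in the bright ones, and replicate 1 stays within 0.08 of 0.

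The gene lists below stand beside 2.82% rises and 2.45% falls over all tested probe sets outside the selected transcripts. A list with few calls is not taken as a result about its members. NAC transcription factors, a plant family with members in stress responses, organ boundaries and senescence, were the group with the highest median. Of 17 probe sets tested (10 genes), 9 rose, for NAC3, NAC018, NAC19, NAC21 and NAC27, and none fell. Their median log2 change was 2.01, and the 8 that did not pass lay between 0.05 and 2.14. A further 24 NAC probe sets were too dim to test. NAC27 (Gma.5331.1.S1_at) was at 4.29 and 4.98 at 0 SD and at 8.96 and 7.84 at 6 SD. Both arrays were well above, replicate 1 the more so, and the log2 change was 3.77 (standard error (SE) 0.52, adjusted p = 0.00729). NAC19 (Gma.4774.2.S1_at) went from 4.37 and 5.25 to 9.75 and 7.84, a change of 3.98 (SE 0.53, adjusted p = 0.00655), and its other tested probe set also rose, by 2.50, the latter call ending without either 0 SD array (0.101 and 0.114). NAC21 (Gma.4774.1.S1_at) went from 6.36 and 7.28 to 10.46 and 9.24, a change of 3.02 (SE 0.41, adjusted p = 0.00721), and its other tested probe set rose by 1.00, losing the call without 7 arrays (0.0511 to 0.119). The first NAC19 and NAC21 probe sets carry the number of 1 transcript cluster, and whether the probes of either also take up the other's transcript was not tested. The NAC27 probe set likewise shares its number with a NAC4 probe set, at 2.14, that did not pass. NAC3 (Gma.1649.1.A1_at) was at 4.71 and 6.61 at 0 SD and 8.41 and 7.76 at 6 SD, a change of 2.43 (adjusted p = 0.0396), with 0 SD arrays that differed from each other by more than the 6 SD ones. Of its 3 other tested probe sets, 2 rose, by 2.49 and 2.01, and 1, at 1.11, did not pass. NAC018 went from 6.21 and 6.14 to 9.58 and 7.80, a change of 2.52 (adjusted p = 0.0323).

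The NAC calls rested on the vegetative arrays more than on either 6 SD array. None of the 9 probe sets passed without 0 SD replicate 1, 5 of the 17 passed without 0 SD replicate B, 7 without 6 SD replicate 1 and 9 without 6 SD replicate B, and the median ran from 1.48 to 2.29. Without 0 SD replicate 1 the adjusted p was 0.0585 for NAC27, 0.0524 for NAC19 and 0.052 for NAC21, and these 3 kept their calls without any other array. NAC3 lost its call without 9 of the 10 arrays (adjusted p 0.0533 to 0.119; without 6 and 4 arrays on its other probe sets, 0.0522 to 0.162), and NAC018 without the arrays of 0 and 1 SD (0.066 to 0.135).

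The MYB and bZIP families had calls both ways. Of 38 MYB probe sets tested (28 genes), 6 rose and 1 fell, with a median of 0.58. MYB176, a regulator of isoflavonoid genes in soybean, was at 10.02 and 10.32 at 0 SD and 11.68 and 12.16 at 6 SD. Its log2 change was 1.75 (SE 0.19, adjusted p = 0.00332), on a probe set of the kind that can match several transcripts. MYB70 went from 7.35 and 7.30 to 8.58 and 8.55, a change of 1.24 (SE 0.16, adjusted p = 0.00632), and both genes kept their calls without each of the 10 arrays. MYB50 rose on both of its tested probe sets, by 0.85 and 0.77, MYB180 by 0.85 and MYB112 by 0.79, and MYB60 fell by 1.46, the latter with 8.22 on replicate 1 and 7.02 on replicate B at 6 SD against 9.12 and 9.04 at 0 SD. The MYB112 probe set and both of MYB50 carry 1 transcript cluster number, and whether they take up each other's transcripts was not tested. The call of MYB60 ended without each array except 6 SD replicate 1 (adjusted p 0.06 to 0.176), that of MYB50 without either 0 SD array (0.0505 and 0.0896; on the second probe set without 8 arrays, 0.0531 to 0.183), that of MYB180 likewise (0.0568 and 0.126) and that of MYB112 without 0 SD replicate 1 (0.0849). MYB60 had 2 other tested probe sets, at -1.43 and -1.01, and MYB180 had 1, at 0.65, that did not pass. Of 56 bZIP probe sets, 2 rose and 1 fell, and with a common median and interquartile range 7 rose and 1 fell. BZIP105 was at 6.96 and 8.03 at 0 SD and 9.40 and 9.16 at 6 SD, a change of 1.79 (adjusted p = 0.0176), and its call ended without 0 SD replicate 1 and without 6 SD replicate B (0.0567 and 0.0502), while its other tested probe set, at 1.59, did not pass. BZIP71 fell from 7.62 and 7.16 to 6.14 and 6.06 (change -1.29, adjusted p = 0.015), and its call ended without 0 SD replicate 1 and without 6 SD replicate B (0.0986 and 0.0563). Its other tested probe set, which is among the selected transcripts, fell by 1.42 (adjusted p = 0.00645) and kept its call without each array. BZIP80 rose by 0.78, and its call ended without the arrays of 0 and 1 SD and 6 SD replicate B (0.0709 to 0.162). Of 37 WRKY probe sets, 2 rose and the rest did not pass. WRKY8 rose by 0.94 and WRKY41 by 0.91. The call of WRKY41 ended without each array except 6 SD replicate 1 (0.0538 to 0.167), and that of WRKY8 without either 0 SD array (0.0729 and 0.116), and WRKY8 passed the brightness filter only through the 6 SD arrays, so that its rise was a condition of the test. With the tested probe sets held fixed, an alternative chosen after seeing the data, its call also ended without 6 SD replicate B (0.0692). DREB3, of the family that binds drought-responsive promoters, rose by 0.78 and lost its call without 8 of the 10 arrays (0.0628 to 0.188).

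In the flowering and clock list, 1 of 12 tested probe sets rose and none fell. It was COL2A, a member of the CONSTANS-like family of day-length regulators, at 7.21 and 8.07 at 0 SD and 9.41 and 9.62 at 6 SD. The 6 SD arrays lay close together and above both 0 SD arrays, and the log2 change of 1.87 (SE 0.27, adjusted p = 0.00815) was kept without each of the 10 arrays. The clock gene LHY and the photoreceptor genes PHYA and CRY1c1 were among the 11 that did not pass. AGL3L, the only MADS-box probe set outside the selected transcripts that was bright enough to test, went from 8.29 and 8.46 to 9.11 and 9.76, a change of 1.06 (adjusted p = 0.0292). Its call ended without 7 of the 10 arrays, 6 SD replicate B included (0.0515 to 0.153).

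The gibberellin list held 18 tested probe sets (12 genes), of which 3 rose and none fell. Both tested probe sets of GA2OX8, a gibberellin 2-oxidase of the family that inactivates gibberellins, rose. The first (GmaAffx.87970.1.A1_at) was at 6.41 and 7.09 at 0 SD and 10.35 and 9.99 at 6 SD, which is 10.7-fold higher (a change of 3.42, SE 0.32, adjusted p = 0.00199). The second went from 6.47 and 6.35 to 8.56 and 8.25, a change of 2.00 (SE 0.23, adjusted p = 0.00371). Neither lost its call without any of the 10 arrays. GASA3, of a family of gibberellin-regulated small peptides, went from 9.86 and 10.21 to 11.64 and 11.63, a change of 1.60 (adjusted p = 0.0139), and its call ended without 0 SD replicate 1 and without 6 SD replicate B (0.0973 and 0.0511). The DELLA repressor genes GAI1 and GAI2 did not pass.

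Of 42 tested probe sets for lipoxygenases and jasmonate (17 genes), 4 rose and none fell, with a median of 0.54. Their 6 SD arrays lay above both 0 SD arrays for 22 of the 42, against 16.0% of all tested probe sets. Several of the 42 measure the same gene. A high share was not particular to this list: it was 13 of 17 for NAC factors, 21 of 38 for MYB factors and 12 of 27 for aquaporins. It was low in others, such as 2 of 20 for ribosomal and translation proteins. With a common median 9 rose, with a common median and interquartile range 8 and with quantile normalization 6. JAZ1, a repressor of jasmonate responses, went from 9.90 and 10.07 to 11.63 and 11.08, a change of 1.38 (adjusted p = 0.0254), and its other tested probe set, at 1.00, did not pass. The jasmonate receptor gene COI1 went from 9.19 and 9.16 to 9.91 and 10.17, a change of 0.87 (adjusted p = 0.0174), and its 2 other tested probe sets, at 0.53 and 0.33, did not pass. The lipoxygenase LOX10 rose by 1.20 and CYP74A2, of the P450 family that holds allene oxide synthase, by 0.79 (adjusted p = 0.0321 and 0.0366). No call of this list was made without either 0 SD array. Beyond those arrays, JAZ1 lost its call nowhere (0.0825 and 0.135), COI1 only without 6 SD replicate B (0.0588 to 0.0961), LOX10 without 7 arrays (0.0508 to 0.136) and CYP74A2 without 8 (0.0503 to 0.149).

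Of 12 tested auxin probe sets, 1 fell and none rose. AUX22, an auxin-induced protein of the Aux/IAA kind, went from 7.96 and 7.82 to 5.01 and 6.45, which is 4.47-fold lower (log2 difference -2.16, SE 0.37, adjusted p = 0.0165). Both 6 SD arrays were below, replicate 1 by the wider margin, and the call ended without either 0 SD array (0.0626 and 0.0991). The brassinosteroid list had 1 rise among 9, BEHL1, from 7.08 and 6.45 to 8.44 and 7.96 (change 1.43, adjusted p = 0.0175), which ended without 0 SD replicate B (0.0759). Of 15 probe sets for abscisic acid and dehydration, LEA-2, a late embryogenesis abundant protein, rose by 1.15 (adjusted p = 0.0146) and P5CR, the last enzyme of proline synthesis, fell by 0.51 (adjusted p = 0.0455). LEA-2 was not called without either 0 SD array or 6 SD replicate B (0.0525 to 0.0913), and P5CR without each array except 6 SD replicate 1 (0.0627 to 0.202). Nor was P5CR called with the arrays at a common median (0.0504), at a common median and interquartile range (0.232) or with a lower or no brightness filter (0.0582). Neither of the 2 ethylene probe sets tested passed.

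Starch and sugar transcripts included some of the larger rises. Of 14 tested probe sets (8 genes), 4 rose, for the beta-amylases BMY1 and BMY2, which release maltose from starch, and for MIPS, myo-inositol phosphate synthase, and none fell. BMY2 (Gma.16670.1.S1_at) was at 5.13 and 5.30 at 0 SD and 9.79 and 7.83 at 6 SD. The 6 SD arrays differed by more than 0 SD replicates did, replicate 1 being the higher, and the log2 change was 3.59 (SE 0.62, adjusted p = 0.0162). A second BMY2 probe set rose by 3.32 (adjusted p = 0.0281), with 8.87 on replicate 1 and 6.61 on replicate B. BMY1 went from 10.34 and 10.83 to 12.99 and 11.98, a change of 1.90 (adjusted p = 0.0146), whereas its 3 other tested probe sets, at 0.26, 1.84 and 2.03, did not pass. MIPS rose by 0.83 on its probe set outside the selected transcripts. BMY2 and MIPS each have another probe set among the 331. Without 0 SD replicate 1 no probe set of this list passed (BMY2 0.0964 and 0.129, BMY1 0.0995), and without 0 SD replicate B 2 did (BMY2 0.0635 on the first). The second BMY2 probe set lost its call also without the arrays of 1 SD, and MIPS lost it without 7 arrays (0.051 to 0.168).

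Aquaporins, the water channels of plant membranes, had 6 rises and no fall among 27 tested probe sets (17 genes), with a median of 0.40. The rises were all of plasma membrane (PIP) members, with 2 probe sets each for PIP1-7 and PIP1-10 and 1 each for PIP2-4 and PIP2-9. PIP1-7 was at 12.33 and 12.27 at 0 SD and 13.73 and 13.51 at 6 SD, which is 2.5-fold higher (log2 difference 1.32, SE 0.16, adjusted p = 0.00463), and its call was kept without each of the 10 arrays. PIP1-10 went from 10.86 and 11.01 to 12.30 and 12.10, a change of 1.26 (adjusted p = 0.00721). The second probe sets of these 2 genes rose by 0.84 and 1.18, and all 4 carry 1 transcript cluster number. PIP2-4 rose by 0.90, with a second tested probe set at 0.85 that did not pass, and PIP2-9 by 0.95. Without 0 SD replicate 1 only 1 aquaporin probe set passed, and PIP1-10 did not (0.0585 and 0.0697), nor did the second probe set of PIP1-7 (0.0777). PIP2-4 lost its call without 0 SD replicate 1 and without 6 SD replicate B (0.0996 and 0.0509), and PIP2-9 without each array except 6 SD replicate B (0.0599 to 0.178). The tonoplast (TIP) and SIP members tested did not pass.

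Genes of flavonoid and isoflavonoid synthesis moved both ways. Of 42 tested probe sets (22 genes), 2 rose and 4 fell, and with a common median and interquartile range 6 rose and 3 fell and the median of -0.18 turned to 0.02. IFS2, an isoflavone synthase, which makes the isoflavone skeleton of legumes, went from 7.23 and 7.38 to 9.80 and 9.64. It was 5.33-fold higher (log2 difference 2.42, SE 0.14, adjusted p = 0.000321), with the arrays of each group close together, and it kept its call without each array. This probe set is of the kind that can match several transcripts, and IFS1 is a close copy of IFS2. Other probe sets named here are of this kind too. Among them are those of MYB176, NOD33, ANN11, BZIP105, BEHL1, CHR5 and CHS8 and both called for PIP1-7. CHR5, a chalcone reductase, fell from 7.90 and 7.62 to 6.16 and 6.79 (change -1.29, adjusted p = 0.0216). CHS8, a chalcone synthase, the first enzyme of the flavonoid pathway, fell by 1.08, and LAR1, a leucoanthocyanidin reductase of tannin synthesis, by 1.19. The chalcone isomerases split, CHI2-A falling by 0.69 and CHI4A rising by 0.61. CHR5 lost its call without either 0 SD array (0.06 and 0.126), CHS8 without 4 arrays (0.0709 to 0.171) and LAR1 without 5 (0.0627 to 0.121), and 6 SD replicate B was among these for CHS8 and LAR1. CHI2-A lost its call without 7 arrays (0.0579 to 0.184) and CHI4A without each of the 10 (0.0561 to 0.176). Without 6 SD replicate 1, 12 probe sets of the list fell and 1 rose.

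The largest fall outside the selected transcripts was in a gene of fatty acid synthesis, a list with 1 rise and 2 falls among 21 tested probe sets (16 genes). SACPD-C, a stearoyl-ACP desaturase, which puts the double bond into oleic acid, was at 9.57 and 9.47 at 0 SD and at 4.89 and 5.51 at 6 SD. It was 19.9-fold lower (log2 difference -4.32, SE 0.27, adjusted p = 0.000466), and both 6 SD values lay below the array median, so that the fold rests on a dim level. Because it was bright at 0 SD only, its fall was a condition of the test, and it was not tested when a 0 SD array was left out. With the tested probe sets held fixed, its adjusted p without each 0 SD or 6 SD array was 0.00209 to 0.00764. FAD3B, an omega-3 desaturase, fell from 9.58 and 9.68 to 8.67 and 8.85 (change -0.87, adjusted p = 0.00884), with the call ending without either 0 SD array (0.0513 and 0.0562). DGAT3-2, a diacylglycerol acyltransferase of oil synthesis, rose from 7.50 and 8.15 to 9.53 and 9.71 (change 1.79, adjusted p = 0.0102), with the call ending without 0 SD replicate 1 (0.0676).

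The other leading falls had varied roles. ELIP, an early light-induced protein of the chloroplast, went from 9.85 and 9.91 to 8.14 and 8.37, which is 3.09-fold lower (log2 difference -1.63, SE 0.16, adjusted p = 0.00258), and kept its call without each array. FCL2 went from 9.99 and 10.48 to 8.47 and 8.70 (change -1.65, SE 0.21, adjusted p = 0.0052) and also kept it. ADH2, an alcohol dehydrogenase, went from 10.63 and 11.36 to 9.67 and 9.40 (change -1.46, adjusted p = 0.0123), and lost it without 6 SD replicate B (0.0533). AAT fell on 3 of its 4 tested probe sets, on the first from 8.33 and 8.37 to 6.89 and 5.93 (change -1.94, adjusted p = 0.00872), with the call ending without 0 SD replicate 1 (0.0598), and on the others by 1.22 and 1.23, calls that ended without either 0 SD array and, for the latter, without 6 SD replicate B (0.0506 to 0.13). CYP17 fell by 1.27, and its call ended without either 0 SD array (0.0511 and 0.0621). The chaperone genes HSP90A1 and HSP90-1 fell by 1.19 and 0.70, the 2 falls among 15 heat shock probe sets, of which none rose. Leaving out 6 SD replicate B or either 0 SD array ended both calls, as did leaving out either 1 SD array for HSP90-1 (0.0566 to 0.106), which was also not called with a common median and interquartile range (0.132). The 5 other tested probe sets of HSP90-1, were between -0.53 and -0.24 and did not pass. Of 25 glutathione transferase probe sets, GSTU1 rose by 0.99, and GSTF7 and GSTU5 fell by 0.91 and 0.96. Each of the 3 lost its call without 0 SD replicate 1 and without 6 SD replicate B (0.0566 to 0.123), and GSTU1 and GSTU5 also without 0 SD replicate B. GSTF7 was not called with a common median and interquartile range (0.0832).

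Among the leading rises with other roles, NOD33, known by its nodulin name only, was at 6.15 and 7.98 at 0 SD and 11.00 and 10.99 at 6 SD. The log2 change was 3.93 (SE 0.54, adjusted p = 0.00721), and the call was kept without each array although the 0 SD arrays lay far apart. PAP25, a purple acid phosphatase, which frees phosphate, rose on all 3 of its tested probe sets, by 2.09, 2.02 and 1.89, the first from 6.85 and 7.43 to 9.20 and 9.25 (adjusted p = 0.00781). All 3 lost the call without 0 SD replicate 1 (0.0584 to 0.0677) and with no other array. Rsv4, a gene of resistance to soybean mosaic virus, was at 5.51 and 5.86 at 0 SD and 8.12 and 8.29 at 6 SD (change 2.52, SE 0.29, adjusted p = 0.00432). ANN11, an annexin, a calcium-dependent membrane-binding protein, went from 5.56 and 5.74 to 7.48 and 7.72 (change 1.94, SE 0.23, adjusted p = 0.00432). Both were bright enough to test only through the 6 SD arrays, so that their rise was a condition of the test. With the probe sets held fixed they kept their calls without each of the 0 SD and 6 SD arrays (0.00786 to 0.0376). CRK5, a kinase, rose by 1.12 (adjusted p = 0.0073), the only call among 42 probe sets for calcium and kinase signalling, and kept it without each array. KR3 rose by 1.27 and lost the call without either 0 SD array (0.0585 and 0.0589). EXP1, an expansin, which loosens cell walls, rose by 1.13, the only call among 23 cell wall probe sets, and lost it without the arrays of 0 and 1 SD (0.0573 to 0.157), and it passed the brightness filter only through the 6 SD arrays, so that its rise was a condition of the test. With the probe sets held fixed its call ended also without 6 SD replicate B (0.116).

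**Figure D3:**
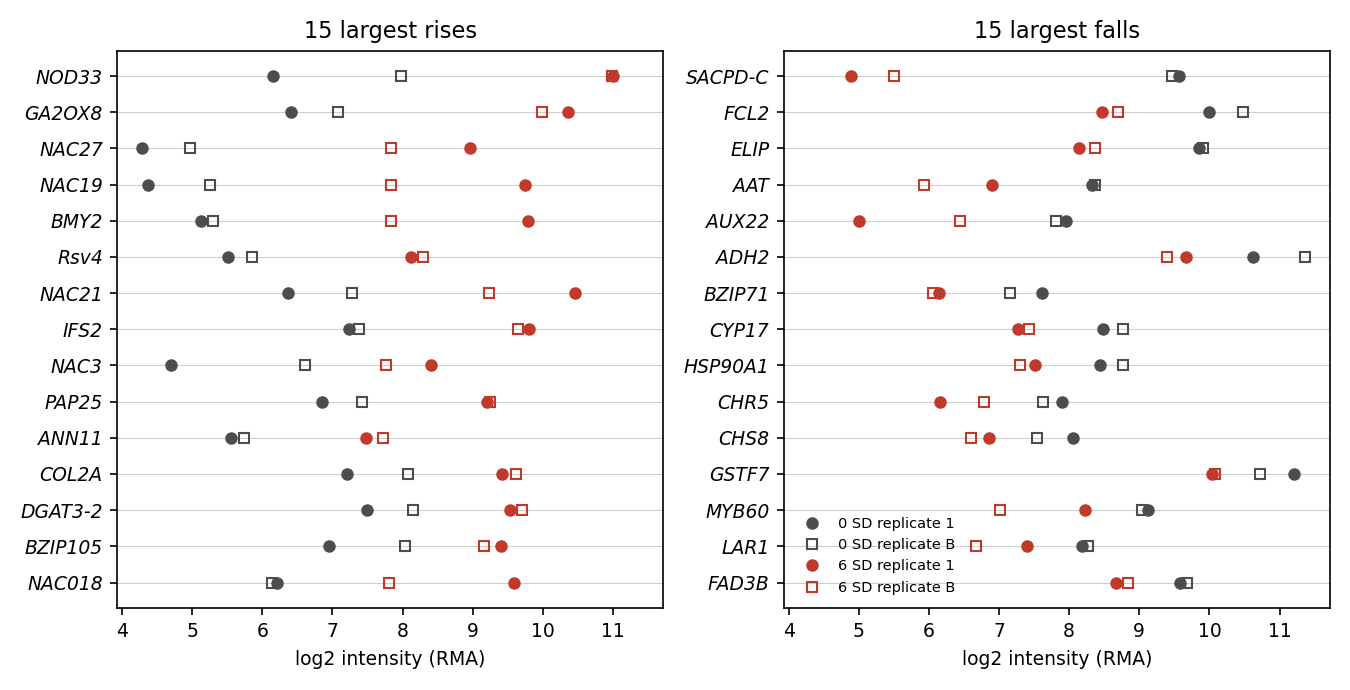
Values on the 0 SD arrays (grey) and 6 SD arrays (red) of the 15 largest named rises and 15 largest named falls outside the selected transcripts, in log2 RMA intensity; circles are replicate 1 and open squares replicate B. Both 6 SD values had to lie beyond both 0 SD values for a row to be chosen. The widest gaps between 6 SD replicates are those of BMY2 and NAC19, with replicate 1 higher.

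The transcript with the largest rise had no gene in the annotation used. Gma.16974.1.S1_at was at 3.47 and 3.53 at 0 SD and 8.78 and 7.93 at 6 SD (log2 difference 4.85, SE 0.43, adjusted p = 0.00166), so that it went from the floor of the array to above its median, which made its rise a condition of the test. With the probe sets held fixed, its adjusted p without each 0 SD or 6 SD array was 0.00506 to 0.0175. Gma.5816.1.S1_at, also without a gene, went from 7.14 and 7.79 to 11.13 and 11.15 (change 3.68, SE 0.30, adjusted p = 0.00121) and kept its call without each array. The falls without a gene were led by GmaAffx.49902.1.S1_at, from 8.85 and 8.01 to 6.22 and 4.83 (change -2.90, adjusted p = 0.0174), and GmaAffx.71237.1.S1_at, from 8.0 and 7.49 to 5.75 and 5.34 (change -2.20, adjusted p = 0.00366). The call of the former ended without 0 SD replicate 1 and without 6 SD replicate B (0.11 and 0.0588). The latter was bright at 0 SD only, and with the probe sets held fixed its adjusted p was 0.00605 to 0.0293.

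The remaining lists had few calls or none, which at shares of 2.82% rises and 2.45% falls says little about lists of this size. No probe set passed among 20 ribosomal and translation proteins, 22 peroxidases and redox proteins, 12 histones and cell division genes, 8 leaf development factors and 6 storage proteins and lectins. At an unadjusted p under 0.05 there were 5379 of the 20098 tested probe sets outside the selected transcripts. The leaf primordium factors YABBY9 and PHANb had log2 changes of -1.09, -0.80 and -0.43 on their tested probe sets and did not pass, whereas YABBY11 and YABBY12 stood at 0.01 and -0.04. The photosynthesis list had 1 rise, PSAD by 0.89 on 1 of its 3 tested probe sets, and 1 fall, ELIP, among 23. The call of PSAD ended without 6 SD replicate B or either 0 SD array (0.0785 to 0.124). Of 59 probe sets for phosphorus, nitrogen and amino acids, 5 rose and 4 fell, for PAP25 and AAT (above), ASP1, PAP and PAP14. ASP1 rose by 1.30 and kept its call without each array. It lost the call with array weights (0.0548), which weigh time points by how closely their 2 arrays agree. So did 42 of the 72 named probe sets tested, among them many said here to lose their call only without certain arrays. The acid phosphatases PAP and PAP14 changed by 0.92 and -0.58. PAP passed the brightness filter only through the 6 SD arrays, so that its rise was a condition of the test. The call of PAP ended without either 0 SD array (0.0582 and 0.0843), with the probe sets held fixed it was kept without either 6 SD array (0.0103 and 0.0421), and that of PAP14 without 7 arrays (0.0737 to 0.158). Of 11 probe sets for the sieve element occlusion genes of phloem, 8 were too dim to test. Over all 11, both 6 SD arrays lay above both 0 SD arrays for 3 and below them for 2. Among the 3 tested there was 1 fall, SEOA, from 7.55 and 7.48 to 6.92 and 6.21 (change -0.95, adjusted p = 0.0401). SEOA passed the brightness filter only through the 0 SD arrays, so that its fall was a condition of the test. Its call ended without 7 arrays (0.0591 to 0.0786), it was too dim to be tested without either 0 SD array (with the probe sets held fixed, 0.116 and 0.165), and the other members of that list, at -0.46 and -0.61, did not pass. The cytokinin list had no tested member outside the selected transcripts.

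**Figure D4:**
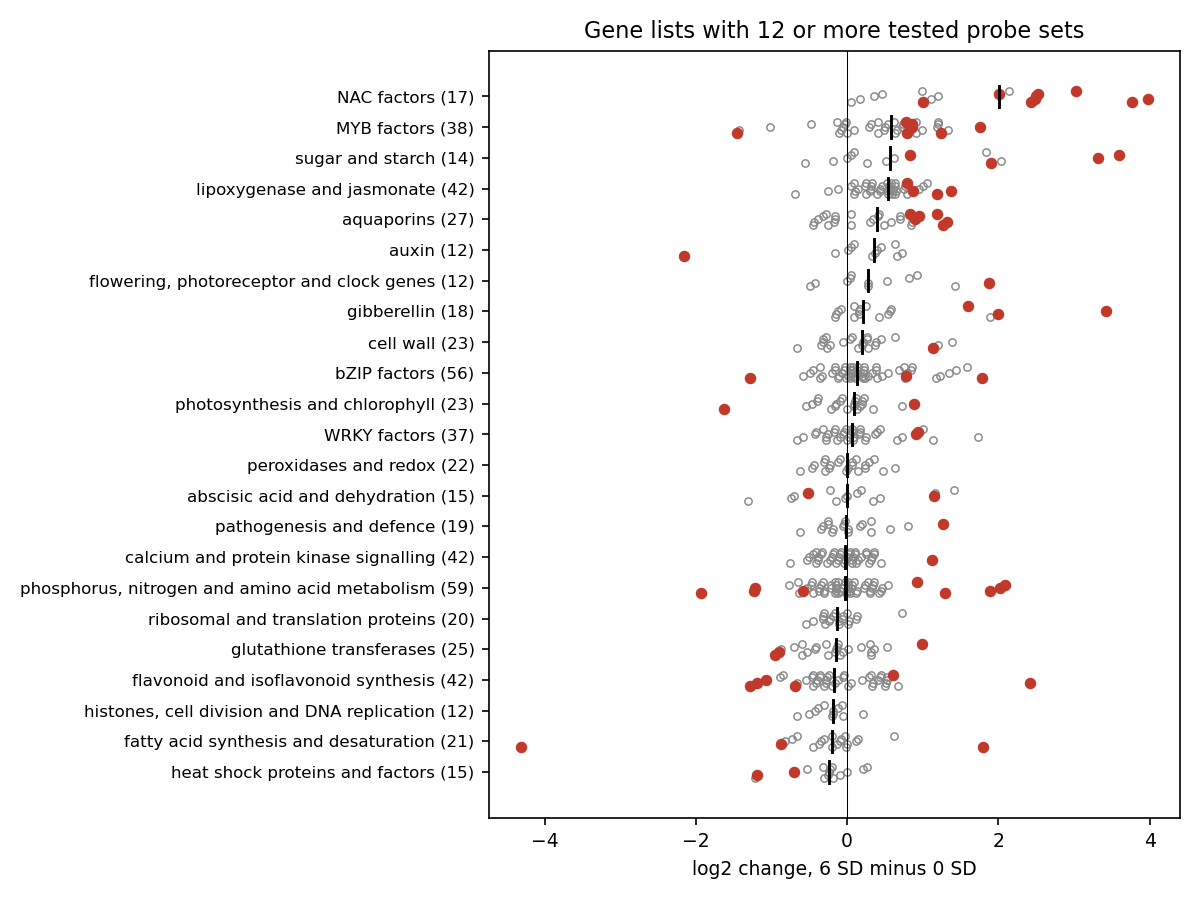
Log2 change at 6 SD (horizontal axis) of each tested probe set outside the selected transcripts, for the gene lists with 12 or more of them (number in brackets), ordered by median. Filled points passed the test, open points did not, and the black bar is the median; NAC factors stand highest with 2.01, and the heat shock list lowest with -0.24, against -0.13 for all tested probe sets.

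Set beside the earlier time points, which share the 0 SD arrays, the leading genes differed in the course of their means. Whether 4 SD differs from 1 SD or 2 SD was not tested, so a change that passes at 1 of these and not at another does not show a drop. In the comparison of 4 SD with 0 SD, 1 probe set outside the selected transcripts rose and 2 fell (0.00498% and 0.00995%), and in that of 6 SD with 4 SD 33 rose and 4 fell (0.164% and 0.0199%). At 1 SD 26 rose and 2 fell (0.129% and 0.00995%), and at 2 SD 16 rose and 2 fell (0.0796% and 0.00995%). The rise called at 4 SD was that of IFS2. It stood 0.16 above 0 SD after 1 SD and 0.14 after 2 SD on the log2 scale, neither of which passed, and 1.23 above it after 4 SD (adjusted p = 0.0292), and it rose by a further 1.19 from 4 to 6 SD (adjusted p = 0.0229). SACPD-C fell by 2.77 from the first short day on (adjusted p = 0.0163), and the change was -2.62 after 2 SD (adjusted p = 0.0247) and -3.27 after 4 SD (adjusted p = 0.00498). NOD33 was 4.34 above 0 SD after 1 SD (adjusted p = 0.0321), 4.09 after 2 SD (adjusted p = 0.0436) and 2.61 after 4 SD, which did not pass. GA2OX8 stood 2.98 above 0 SD after 1 SD (adjusted p = 0.0231), and its change of 2.12 after 4 SD did not pass (adjusted p = 0.109). NAC19 and NAC21 were up by 4.03 and 3.37 at 1 SD (adjusted p = 0.0381 and 0.0307) and stood at 2.09 and 1.58 at 4 SD, which did not pass. BMY2 had 4.28 at 1 SD (adjusted p = 0.0586), 3.68 at 2 SD and 2.01 at 4 SD, none of which passed. ELIP fell by 1.62 after 1 SD (adjusted p = 0.0177), and its change of -0.78 after 4 SD did not pass. Rsv4 had changes of 0.43, 0.65 and 0.86 at 1, 2 and 4 SD and AUX22 of 0.58, 0.54 and -1.66, none of which passed. For the leading transcript without a gene, Gma.16974.1.S1_at, they were -0.07, 0.03 and 0.91, and its step from 4 SD to 6 SD was 3.94 (adjusted p = 0.0166).

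**Figure D5:**
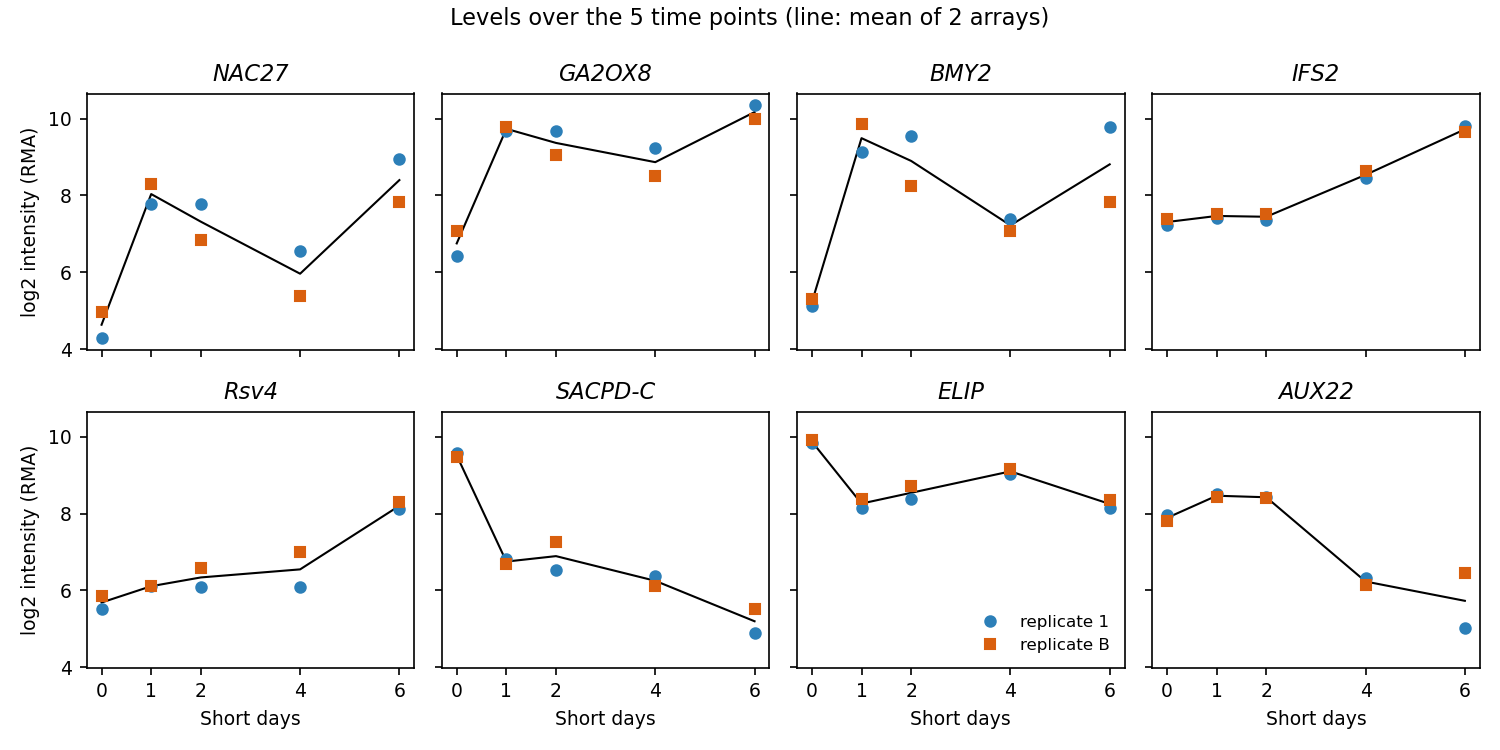
Log2 RMA intensity on each array at 0, 1, 2, 4 and 6 SD for 8 named genes; circles are replicate 1, squares replicate B, and the line joins the means of 2 arrays. By these means NAC27, GA2OX8 and BMY2 stand high at 1 SD, lower at 4 SD and high again at 6 SD, a course for which 4 SD was not tested against 1 SD. IFS2 and Rsv4 are highest at 6 SD, and SACPD-C is low from 1 SD on.

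The 6 SD arrays also differed from each other. The gap between them was above 2 on the log2 scale for 145 of the 20098 tested probe sets (57 higher on replicate B and 88 higher on replicate 1), whereas that between the 0 SD arrays was above 2 for 26. Over all 37262 probe sets, dim ones included, 132 were higher on replicate B and 101 on replicate 1 by that much. The genes of this paragraph were chosen after their values were seen. The MADS-box gene AG1, of the AGAMOUS kind that specifies stamens and carpels, was at 6.53 and 6.24 at 0 SD and at 6.39 and 8.92 at 6 SD, high on replicate B alone. MADS28 was at 3.93 and 3.69 and then 4.03 and 6.78, again high on replicate B alone, and both were too dim for the test. The proline-rich wall proteins PRP3 and PRP2 showed the same side: 1 PRP3 probe set was at 9.08 and 9.62 at 0 SD and 9.29 and 12.19 at 6 SD. On the other side, GA2OX6, a relative of GA2OX8, was at 7.20 and 7.44 at 0 SD and 9.17 and 5.78 at 6 SD, above 0 SD on replicate 1 and below it on replicate B. The cold-regulated gene SRC2 was at 10.88 and 10.94 and then 11.49 and 7.71, low on replicate B. Arginine decarboxylase ADC was at 10.26 and 8.67 and then 10.87 and 8.73, with the gap already present at 0 SD. For such genes the mean of the 2 arrays describes neither, and the study's methods state that the rate of floral meristem development was similar in all 6 SD replicates. Whether the stage of the meristems differed between these 2 collections was not tested.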

How the data were processed

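RNA of microdissected soybean SAMs was hybridized to 10 Affymetrix Soybean GeneChips, 2 per time point, from independent tissue collections. The authors deposited RMA values, that is, background-corrected and quantile-normalized log2 intensities with 1 value per probe set; their present calls were not used here. Of 37746 entries, 37593 are soybean probe sets. Group means of the 5 time points were fitted to all 10 arrays with limma 3.58.1 in R 4.3.3 (5 residual degrees of freedom), and 20366 probe sets above the array median in at least 2 arrays were tested. Precision is limited by the small number of arrays (median standard error of a log2 difference 0.18). Genes came from GEO's platform annotation and RefSeq names (8677 probe sets with 1 gene, 370 with several, 28546 with none), and 32 gene lists were searched by symbol.

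Named are the 15 largest rises and falls with a gene name, ranked by the smaller of the 2 single-array differences, up to 4 changed members per list, the 2 largest rises and falls without a gene, and markers. Members and lists were chosen with earlier results of these data known. The steps were tested on simulated data. Labels do not say that replicate numbers pair the arrays. Sequences and coordinates are not used here, since the array files and reference tables used here pair none with a probe set.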

Additional observations from a re-analysis of the deposited data

How the results depend on the processing

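The 72 named probe sets with a test kept their direction under every alternative run. For each of them both 6 SD arrays lay beyond both 0 SD arrays. Leaving out or weighting arrays therefore could not reverse a direction, and only the settings that rescale the arrays could have. The genes chosen for a gap between the 6 SD arrays were not among the 72. The counts of probe sets outside the selected transcripts moved by more than 1.5 times under several settings. With no brightness filter 863 rose, with a common median and interquartile range 868 rose and 283 fell, with array weights 124 and 49, and with the 4 arrays of 0 SD and 6 SD alone 54 and 6. The array weights were equal for the 2 arrays of each time point, 0.418 at 6 SD and 0.909 at 0 SD. They weigh time points and cannot set 6 SD replicate B apart. Over leaving out 1 array in turn the rises ran from 79 to 862 and the falls from 21 to 2727. With the probe sets held fixed, added after the data had been seen, they ran from 79 to 943 and from 28 to 2751 over the 0 SD and 6 SD arrays (293 and 96 without 0 SD replicate B, 236 falls without 6 SD replicate B); 313 rises and 122 falls were kept without either 6 SD array. The causes of these differences were not tested. Fewer arrays leave fewer degrees of freedom, and the brightness filter changes the number tested, but the share of either in the counts was not tested.

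Array labels were checked for pairing. Deviations of same-labelled arrays correlated at 0.19 to 0.62 among 0, 2, 4 and 6 SD and at -0.37 to -0.07 with 1 SD, and no label ties the arrays, so they were not taken as pairs; a replicate block gave 742 rises and, over 1.5 times the count without it, 740 falls, and ended no call of a named probe set. Of 72 named probe sets tested, 13 kept their call under every alternative, 42 lost it with array weights, 55 with 4 arrays, 49 without 0 SD replicate 1 and 27 without 6 SD replicate B. Dim probe sets, 17164 of them, were left without a test.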
